A study of Mus musculus with 9 samples.

Results

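The transcripts of 8 genes were examined in mouse splenic B cells: the DNA methyltransferases Dnmt1, Dnmt3a and Dnmt3b, the methylcytosine dioxygenases Tet1, Tet2 and Tet3, the maintenance cofactor Uhrf1, and Ezh2, the histone H3 lysine 27 methyltransferase of Polycomb repressive complex 2 (PRC2). The genes were chosen by name because the TCL1 protein is reported to bind DNMT3A, and all 8 were found among the 22174 genes in the authors' expression table. RNA-sequencing was available for 9 mice on a C57/BL6NTac background, 1 library a mouse. Eµ-MTCP1 mice (Z2551, Z2606 and Z2641) carried human MTCP1 behind immunoglobulin heavy chain promoter and Eµ enhancer elements that direct expression to B cells, and came from a single founder line, Z36. Eµ-TCL1 mice (B4376, B4437 and C1594) carried human TCL1 under the same kind of control. The 6 transgenic mice were age-matched and carried a considerable leukemia burden, whereas the wildtype mice (Z2754, Z2755 and Z2785) were littermates that lacked the MTCP1 transgene. The transgene and the leukemia therefore could not be told apart in any comparison with wildtype, and the age of single mice was not given in the sources used here. All values below are listed in this order of mice.

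DNA methylation is written onto cytosines of CpG dinucleotides by de novo enzymes and copied after each round of replication by a maintenance enzyme, which a hemimethylation-binding cofactor brings to newly made DNA. The TET enzymes oxidise the methyl group, the first step of its active removal. B cells remodel their methylome as they mature, and mutations of DNMT3A and TET2 are well known in blood cancers, while EZH2 is needed for the rapid division of germinal center B cells.

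Each library held 6447542 to 8033303 reads assigned to genes on the authors' Salmon reference of coding sequences plus the human MTCP1 and TCL1 transgenes. Levels are given as CPM, the count of a gene scaled to a common library total, after trimmed-mean (TMM) scaling, and 3 reads corresponded to 0.326 to 0.495 CPM. The labels were checked against the transgenes first. In the authors' normalized log2 values, human MTCP1 ranged from 11.1 to 12.3 in Eµ-MTCP1 mice and from 5.85 to 6.19 in the other 2 groups, and TCL1A ranged from 14.9 to 15.6 in Eµ-TCL1 mice and from 6.04 to 6.96 elsewhere. The B cell label was checked against markers that had reads in every library: Cd79a, a signalling chain of the B cell receptor, ranged from 2429 to 4084 CPM, Ms4a1, which encodes CD20, from 367 to 782 CPM, and Pax5, the B cell identity factor, from 28.6 to 58.5 CPM. Pax5 was lower in every transgenic mouse (28.6 to 47.4 CPM) than in every wildtype mouse (53.4 to 58.5 CPM). Its log2 fold change was -0.42 in Eµ-MTCP1 and -0.52 in Eµ-TCL1 (adjusted p = 0.25 and 0.16, edgeR). Non-overlap with wildtype held for 5 of the 8 B cell markers in each model, beside 29.9% and 32.6% of all genes tested. Among further B cell markers, named after their values were seen, differences went both ways. Ebf1, a B lineage transcription factor, fell in Eµ-TCL1 against wildtype by 0.87 on the log2 scale (adjusted p = 0.014, edgeR), with a value of -0.59 in Eµ-MTCP1 (adjusted p = 0.067). In Eµ-TCL1 the log2 fold change of the surface receptor Cd22 was -0.90 (adjusted p = 0.052), that of the kinase Blk 0.55 (adjusted p = 0.10) and that of Ms4a1 0.44 (adjusted p = 0.42). Other cells were not absent. Summed myeloid markers ranged from 155 to 3980 CPM, and Mpo, the granule enzyme of early granulocytes, stood at 2324 CPM in wildtype mouse Z2755 and 937 CPM in Eµ-MTCP1 mouse Z2641 but at 12.9 to 133 CPM in the other 7. Mpo did not stand for all myeloid markers, as B4376 had a sum of 1409 CPM with 29.6 CPM of Mpo. Of the 8 myeloid markers 0 passed in either model against wildtype, beside 9.48% and 9.20% of all genes tested. The log2 fold change was above 0 for 3 of them in Eµ-MTCP1 and 2 in Eµ-TCL1. Summed erythroid markers were highest in Z2641 (319 CPM against 22.5 to 173 CPM), and summed T cell markers were highest in B4376 (53.4 CPM against 4.43 to 23.3 CPM). Summed NK cell markers were 1.16 to 12.6 CPM in Eµ-MTCP1 mice, all below the 19.1 to 44.9 CPM of wildtype mice, and 2.94 to 42.9 CPM in Eµ-TCL1 mice. Summed plasma cell markers ranged from 128 to 2962 CPM with overlap of all groups. Of the 6 plasma cell markers 1 passed in each model against wildtype, beside 9.48% and 9.20% of all genes tested. It was Prdm1, a regulator of plasma cell differentiation, which rose (log2 fold change 2.11 in Eµ-MTCP1 and 1.83 in Eµ-TCL1, adjusted p = 0.023 and 0.040, edgeR). Irf4, another of the 6, lay below 0 in both (-0.23 and -0.43, adjusted p = 0.74 and 0.53, edgeR). The part of these markers in the results below was not tested. The share of reads on mitochondrial genes was 10.8% in wildtype mouse Z2754 and 8.02% in Eµ-MTCP1 mouse Z2641, against 2.91% to 4.57% in the other 7 libraries, and its part in the results below was not tested either. Library Z2755 was also on a different sequencing lane from the other 8. As these are bulk samples, fewer cells of a type and less RNA per cell cannot be told apart.

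Across the 8 genes no change passed the test in any comparison. The test was edgeR's quasi-likelihood test over all 11165 genes with enough reads, in 1 fit of the 9 libraries, with Benjamini-Hochberg adjustment and a threshold of 0.05 on the adjusted p. Of the 8 genes, 0 passed in Eµ-MTCP1 against wildtype, where 9.48% of all genes tested did. Again 0 passed in Eµ-TCL1 against wildtype, where 9.20% of all genes did, and 0 passed between the transgenic models, where 0.0448% of all genes did. At an unadjusted p under 0.05 the counts were 1 gene (Tet2), 2 genes (Tet1 and Tet2) and 1 gene (Tet3), beside 25.0%, 25.1% and 6.42% of all genes. DESeq2 called 0, 1 (Tet1) and 0 of the 8 in the same order, beside 14.8%, 15.3% and 0.657% of all genes it gave a p for. At an unadjusted p under 0.05 its counts were 3, 2 and 2, beside 26.7%, 26.4% and 7.31% of all genes. All 8 genes had passed the filter on low counts. Tet1 had passed it through the wildtype group in which it was high, so its tests were bound to point one way and its place in these counts and in the medians below supports nothing.

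**Figure D1:**
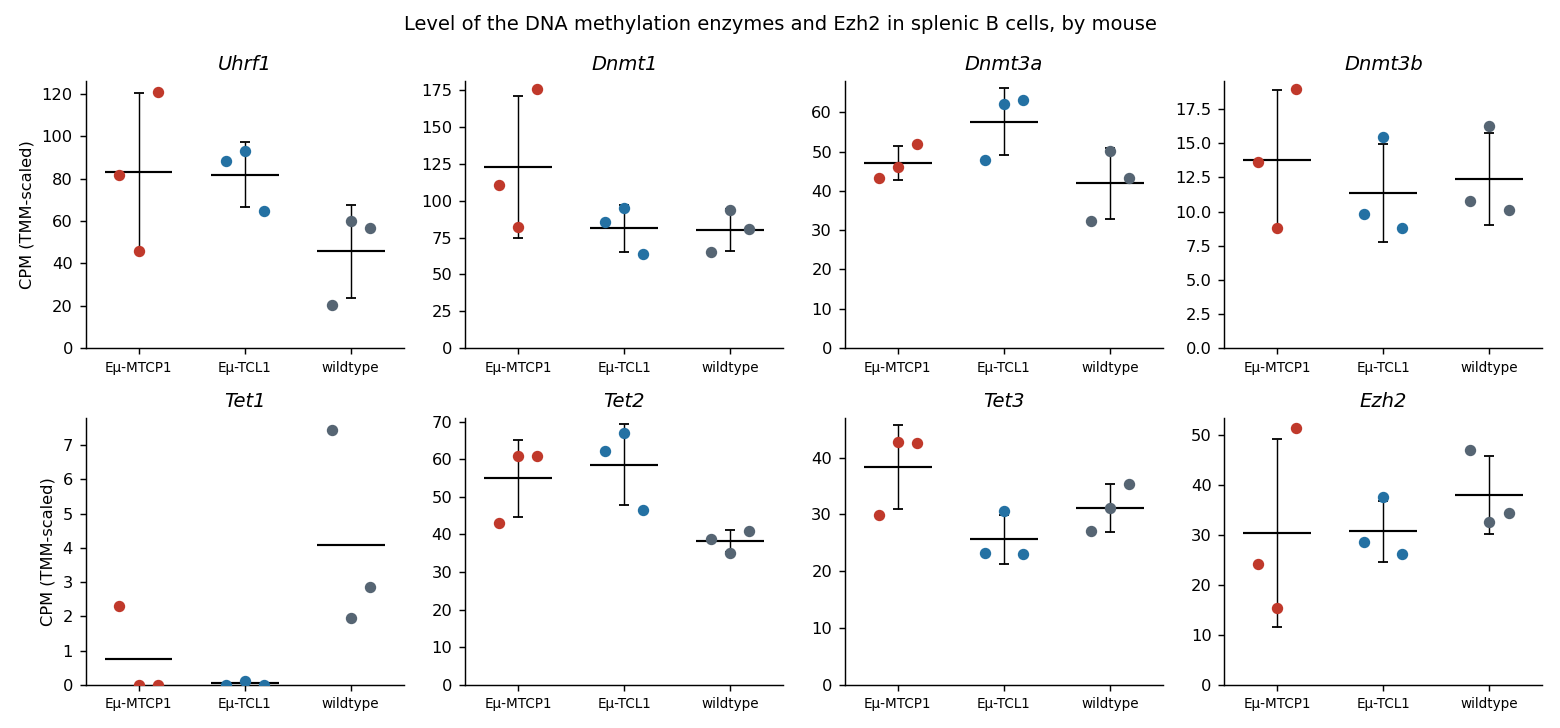
Level of each gene in every mouse (y axis, CPM on TMM-scaled library sizes, each panel on its own scale from 0; x axis, group). Points are single mice in the order named in the text, horizontal lines are group means and error bars 1 SD of 3 mice (none for Tet1, where most transgenic libraries had 0 reads). Tet2 points of all 6 transgenic mice (43.2 to 67.0 CPM) lie above the 3 wildtype points (35.1 to 40.8 CPM), and Eµ-MTCP1 mouse Z2641 is the highest point for Uhrf1, Dnmt1, Dnmt3b and Ezh2.

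The median log2 fold change of the 8 genes was 0.23 in Eµ-MTCP1 against wildtype, with 6 of 8 values above 0, beside a median of -0.02 over all genes tested. In Eµ-TCL1 against wildtype it was -0.05 (4 of 8 above 0), beside -0.01 over all genes. Between the models it was -0.15 (3 of 8 above 0), beside -0.0019 over all genes. The Eµ-MTCP1 and Eµ-TCL1 comparisons share the same wildtype libraries, so they were not treated as separate evidence.

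Levels of different genes were compared only after division by the length of the longest coding sequence in the reference, which ran from 2241 bases for Ezh2 to 6120 bases for Tet1. In wildtype B cells Uhrf1 stood first at 19.4 ± 9.40 CPM per kb (SD, n = 3), followed by Ezh2 at 16.9 ± 3.49, Dnmt1 at 16.4 ± 2.93 and Dnmt3a at 15.4 ± 3.30 CPM per kb. The ranges of neighbours among these 4 genes overlapped. Uhrf1 was above Ezh2 in 2 of 3 wildtype mice, Ezh2 above Dnmt1 in 1 and Dnmt1 above Dnmt3a in 3. Tet2 (6.62 ± 0.50), Tet3 (5.76 ± 0.77) and Dnmt3b (4.80 ± 1.31 CPM per kb) formed a lower step, separated from Dnmt3a without overlap but overlapping each other, and Tet1 was lowest at 0.67 ± 0.48 CPM per kb. In Eµ-TCL1 mice Uhrf1 (34.9 ± 6.50 CPM per kb) no longer overlapped the next gene, Dnmt3a (21.1 ± 3.15 CPM per kb). In Eµ-MTCP1 mice Uhrf1 (35.3 ± 16.01) was followed by Dnmt1 (25.3 ± 9.87) and Dnmt3a (17.3 ± 1.60 CPM per kb), and their ranges overlapped.

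Dnmt1, on chr9:20907209-20959888 (minus strand, GRCm38), encodes the maintenance methyltransferase. Its level was 111, 82.1 and 176 CPM in Eµ-MTCP1 mice, 85.5, 94.9 and 63.9 CPM in Eµ-TCL1 mice, and 65.3, 93.8 and 80.7 CPM in wildtype mice. Eµ-MTCP1 values spread the most, and all 3 groups overlapped. The log2 fold change in Eµ-MTCP1 against wildtype was 0.62 ± 0.28 (SE; 95% interval -0.01 to 1.25; adjusted p = 0.21, edgeR), and it was 0.24 without mouse Z2641. In Eµ-TCL1 against wildtype it was 0.03 ± 0.28 (95% interval -0.60 to 0.65; adjusted p = 0.97), and in Eµ-TCL1 against Eµ-MTCP1 -0.59 ± 0.28 (adjusted p = 0.79), or -0.25 without Z2641.

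Uhrf1, on chr17:56303321-56323486 (plus strand), encodes the protein that recognises hemimethylated CpG and recruits DNMT1 to it. It was measured at 81.9, 45.9 and 121 CPM in Eµ-MTCP1 mice, 88.2, 93.1 and 64.6 CPM in Eµ-TCL1 mice, and 20.2, 60.0 and 56.7 CPM in wildtype mice. Every Eµ-TCL1 mouse was above every wildtype mouse, whereas Z2606 of the Eµ-MTCP1 group lay within the wildtype range. Group means were 82.9 ± 37.6, 82.0 ± 15.3 and 45.6 ± 22.1 CPM (SD, n = 3). The log2 fold changes against wildtype were 0.86 ± 0.42 in Eµ-MTCP1 (95% interval -0.08 to 1.80; adjusted p = 0.24, edgeR) and 0.85 ± 0.42 in Eµ-TCL1 (-0.09 to 1.78; adjusted p = 0.25). They depended in part on the low wildtype mouse Z2754, since without it they were 0.50 and 0.48, and the Eµ-MTCP1 value was 0.47 without Z2641. Z2754 and Z2641 were also the libraries with the highest mitochondrial share of reads, whose part in these values was not tested. The models themselves differed by -0.02 (95% interval -0.95 to 0.91).

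Dnmt3a, on chr12:3806007-3914443 (plus strand), encodes the main de novo methyltransferase of blood cells and the reported partner of TCL1. Its level was 43.3, 46.0 and 51.9 CPM in Eµ-MTCP1 mice, 47.7, 62.0 and 63.2 CPM in Eµ-TCL1 mice, and 32.3, 50.1 and 43.4 CPM in wildtype mice. Eµ-TCL1 mice were the highest on average, but B4376 lay below wildtype mouse Z2755. The log2 fold change in Eµ-TCL1 against wildtype was 0.46 ± 0.21 (95% interval -0.01 to 0.92; unadjusted p = 0.053, adjusted p = 0.21, edgeR), and in Eµ-MTCP1 against wildtype 0.17 ± 0.21 (-0.30 to 0.63; adjusted p = 0.67). Between the models it was 0.29 ± 0.21 (-0.17 to 0.76; adjusted p = 0.86). On the deposited gene count table, which also counts reads outside the coding sequence, Eµ-TCL1 mice (74.8 to 93.9 CPM) no longer overlapped wildtype mice (40.7 to 70.3 CPM), with a log2 fold change of 0.63 (adjusted p = 0.092). With transcript lengths as offsets the Eµ-TCL1 value was -0.01 (adjusted p = 1.0), and 0.31 with transcripts of effective length under 200 bases left out of them.

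Dnmt3b, on chr2:153649450-153687730 (plus strand), encodes the second de novo enzyme. It was the least abundant of the methyltransferases, at 13.6, 8.81 and 18.99 CPM in Eµ-MTCP1 mice, 9.82, 15.5 and 8.82 CPM in Eµ-TCL1 mice, and 10.8, 16.3 and 10.1 CPM in wildtype mice. The groups overlapped throughout. The log2 fold changes were 0.15 ± 0.37 in Eµ-MTCP1 (95% interval -0.67 to 0.97) and -0.12 ± 0.37 in Eµ-TCL1 (-0.95 to 0.70) against wildtype, with adjusted p-values of 0.83 and 0.87 (edgeR), so that a change of up to 1.96-fold in Eµ-MTCP1 lay inside the interval.

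**Figure D2:**
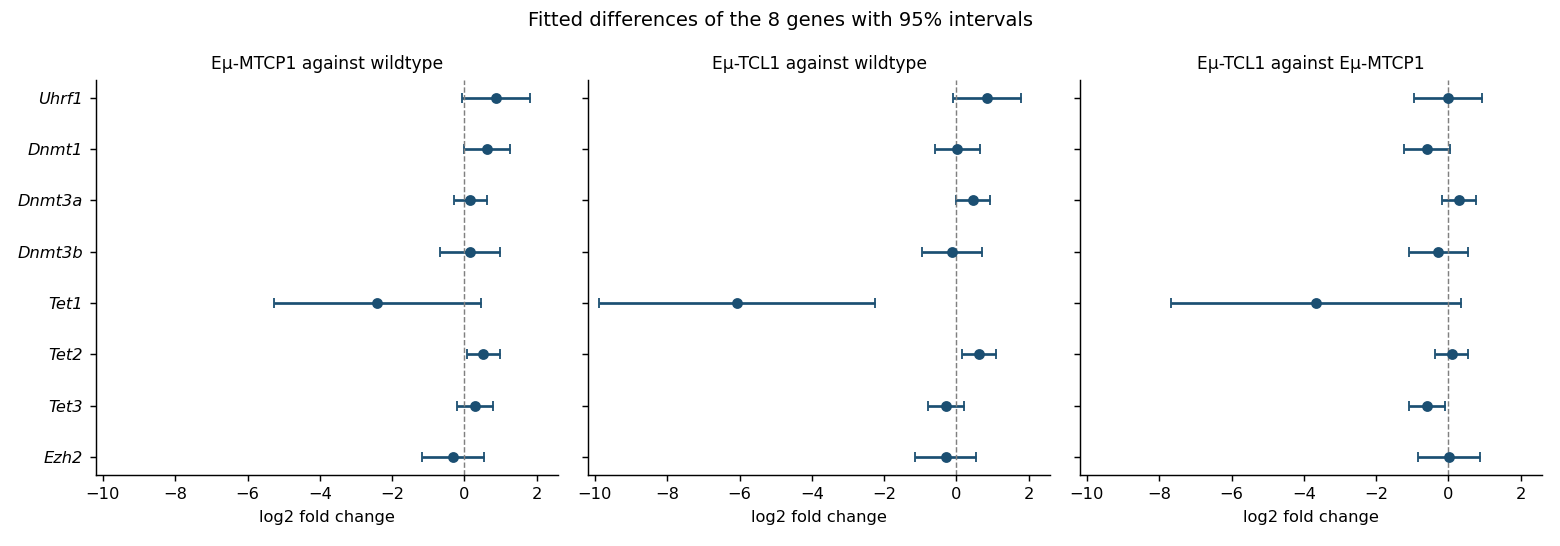
Fitted log2 fold change of each gene (x axis) in each comparison (panels), with bars for the 95% interval from edgeR's quasi-likelihood fit of 3 mice a group. The intervals of Tet2 lie above 0 in both comparisons with wildtype (0.06 to 0.99 and 0.15 to 1.08), that of Tet1 lies below 0 in Eµ-TCL1 against wildtype (-9.89 to -2.25), that of Tet3 lies below 0 in Eµ-TCL1 against Eµ-MTCP1 (-1.08 to -0.08), and no gene passed the adjusted threshold.

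Among the dioxygenases, Tet2, on chr3:133463679-133545139 (minus strand), was the member in which both models stood apart from wildtype. Its level was 43.2, 60.9 and 60.8 CPM in Eµ-MTCP1 mice, 62.1, 67.0 and 46.4 CPM in Eµ-TCL1 mice, and 38.7, 35.1 and 40.8 CPM in wildtype mice. All 6 transgenic mice were above all 3 wildtype mice. Group means were 55.0 ± 10.2, 58.5 ± 10.8 and 38.2 ± 2.90 CPM (SD, n = 3). The log2 fold change was 0.53 ± 0.21 in Eµ-MTCP1 (95% interval 0.06 to 0.99; unadjusted p = 0.030, adjusted p = 0.15, edgeR) and 0.62 ± 0.21 in Eµ-TCL1 (0.15 to 1.08; unadjusted p = 0.014, adjusted p = 0.098), equal to 1.44-fold and 1.53-fold. On the gene count table Eµ-TCL1 mice (63.5 to 83.3 CPM) were still above wildtype mice (50.1 to 55.7 CPM), but the lowest Eµ-MTCP1 mouse, at 49.8 CPM, was not. Non-overlap of groups held for 1 of the 8 genes in Eµ-MTCP1 against wildtype (Tet2) and for 3 of 8 in Eµ-TCL1 against wildtype (Tet1, Tet2 and Uhrf1), beside 29.9% and 32.6% of all genes tested. Between the models it held for 0 of 8, beside 11.0% of all genes.

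Tet1, on chr10:62804570-62908996 (minus strand), was close to the limit of detection in leukemic cells. It had 14, 0 and 0 reads in Eµ-MTCP1 mice, 0, 1 and 0 reads in Eµ-TCL1 mice, and 60, 18 and 19 reads in wildtype mice. All wildtype libraries thus held Tet1 reads, at 7.43, 1.95 and 2.87 CPM, and among the 6 transgenic libraries only Z2551 exceeded 3 reads. Summed over mice, 97 wildtype reads stood against 1 Eµ-TCL1 read, a depth-corrected ratio of 91.4 with an exact 95% counting interval of 16.02 to 3645, and against 14 Eµ-MTCP1 reads, a ratio of 5.56 (3.16 to 10.6). On the standard reference and the gene count table the ratios were 56.6 and 54.5 for Eµ-TCL1 and 6.20 and 6.29 for Eµ-MTCP1. The latter were corrected by plain read totals and those on the coding reference by TMM-scaled totals, so they are not on 1 scale. The intervals given cover counting error only, not the spread between mice. With that spread, the adjusted p was 0.054 in Eµ-TCL1 against wildtype (edgeR; unadjusted p = 0.0052) and 0.27 in Eµ-MTCP1 against wildtype. Tet1 passed the filter on low counts through its wildtype reads. The ratios, their intervals and these p-values are therefore given as values and not as evidence of a direction.

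The adjusted p of Tet1 in Eµ-TCL1 against wildtype lay on both sides of the threshold, from 0.0068 with the DESeq2 Wald test to 0.17 without wildtype mouse Z2754, which held most of the reads. Without Z2551, Z2606 or Z2641 it was 0.020, 0.037 and 0.033. In Eµ-MTCP1 against wildtype it was 0.040 without Z2551. The authors' CLEAR filter, which keeps values of genes with adequate coverage, kept a Tet1 value in 5 of the 9 libraries and a value of each of the other 7 genes in all 9.

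Tet3, on chr6:83362373-83459084 (minus strand), was measured at 29.9, 42.8 and 42.6 CPM in Eµ-MTCP1 mice, 23.2, 30.6 and 23.1 CPM in Eµ-TCL1 mice, and 27.01, 31.2 and 35.4 CPM in wildtype mice. The models stood on opposite sides of the wildtype mean, and each overlapped wildtype. The log2 fold change in Eµ-TCL1 against Eµ-MTCP1 was -0.58 ± 0.23 (95% interval -1.08 to -0.08; unadjusted p = 0.026, adjusted p = 0.69, edgeR), but the highest Eµ-TCL1 mouse (30.6 CPM) was above the lowest Eµ-MTCP1 mouse (29.9 CPM). Against wildtype the values were 0.30 ± 0.22 in Eµ-MTCP1 and -0.28 ± 0.22 in Eµ-TCL1 (adjusted p = 0.43 and 0.48).

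Ezh2, on chr6:47530139-47595341 (minus strand), was 24.1, 15.3 and 51.4 CPM in Eµ-MTCP1 mice, 28.5, 37.6 and 26.05 CPM in Eµ-TCL1 mice, and 46.8, 32.5 and 34.3 CPM in wildtype mice. In Eµ-MTCP1 mice Z2551 and Z2606 were below every wildtype mouse and Z2641 above all of them. The log2 fold change in Eµ-MTCP1 against wildtype was -0.32 ± 0.38 (95% interval -1.18 to 0.53; adjusted p = 0.64, edgeR). Without Z2641 it was -0.98 (adjusted p = 0.088), and without both libraries of highest Mpo it was -1.08 (adjusted p = 0.12). In Eµ-TCL1 against wildtype it was -0.30 ± 0.38 (-1.15 to 0.55; adjusted p = 0.68).

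Uhrf1, Dnmt1 and Ezh2 are known to rise in dividing cells, so 20 proliferation genes were examined beside them. Mki67, the Ki-67 antigen of cycling cells, was 200, 112 and 515 CPM in Eµ-MTCP1 mice, 185, 222 and 175 CPM in Eµ-TCL1 mice, and 71.0, 105 and 74.0 CPM in wildtype mice. The groups with a transgene did not overlap wildtype. It passed the test in Eµ-MTCP1 (log2 fold change 1.73 ± 0.46, adjusted p = 0.041, edgeR), not in Eµ-TCL1 (1.22 ± 0.45, adjusted p = 0.12). Without Z2641, the highest mouse, the Eµ-MTCP1 value was 0.88 and that of Tyms, named below, 0.99 instead of 1.58. Top2a, the topoisomerase of mitotic chromosomes, was 89.3, 34.8 and 186 CPM, then 56.3, 94.1 and 57.1 CPM, then 45.3, 54.9 and 37.0 CPM. Pcna, the replication clamp, was 139, 166 and 252 CPM, then 142, 227 and 195 CPM, then 211, 157 and 159 CPM. Top2a and Pcna thus overlapped wildtype in Eµ-MTCP1, and Top2a did not in Eµ-TCL1. Of the 20 genes, 3 in Eµ-MTCP1 and 4 in Eµ-TCL1 did not overlap wildtype, beside 29.9% and 32.6% of all genes tested.

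Of the 20 proliferation genes, 2 rose and 0 fell in Eµ-MTCP1 against wildtype, beside 5.49% of all genes that rose there. They were Mki67 and Tyms, thymidylate synthase (log2 fold change 1.58 ± 0.41, adjusted p = 0.038, edgeR). By edgeR 0 passed in Eµ-TCL1 against wildtype. At an unadjusted p under 0.05 there were 9 of 20 in Eµ-MTCP1 and 1 of 20 in Eµ-TCL1, beside 25.0% and 25.1% of all genes, and DESeq2 called 5 and 1, beside 14.8% and 15.3%. The median log2 fold change was 0.87 and 0.35, with 19 and 16 of 20 values above 0, beside medians of -0.02 and -0.01 over all genes. The calls in Eµ-MTCP1 against wildtype were not stable: 0 of 20 passed when Z2551, Z2641, B4376, B4437, Z2754 or Z2785 was left out, 1 passed without C1594 or Z2755, and 8 passed without Z2606. Without Z2606, 943 of all 11458 genes tested passed there, and 525 to 1028 genes did over all fits with 1 library left out. The summed level of the 20 genes was 1678, 995 and 3304 CPM in Eµ-MTCP1 mice, 1253, 1854 and 1232 CPM in Eµ-TCL1 mice, and 990, 1428 and 1108 CPM in wildtype mice. Mouse Z2641, highest in this sum, was also highest for Dnmt1, Uhrf1, Dnmt3b and Ezh2 and for erythroid markers. Of the 3 wildtype mice, Z2755 had the highest sum, Dnmt1, Uhrf1 and Dnmt3b, and the highest Mpo of all 9 libraries. The part of other cell types in these values was not tested.

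**Figure D3:**
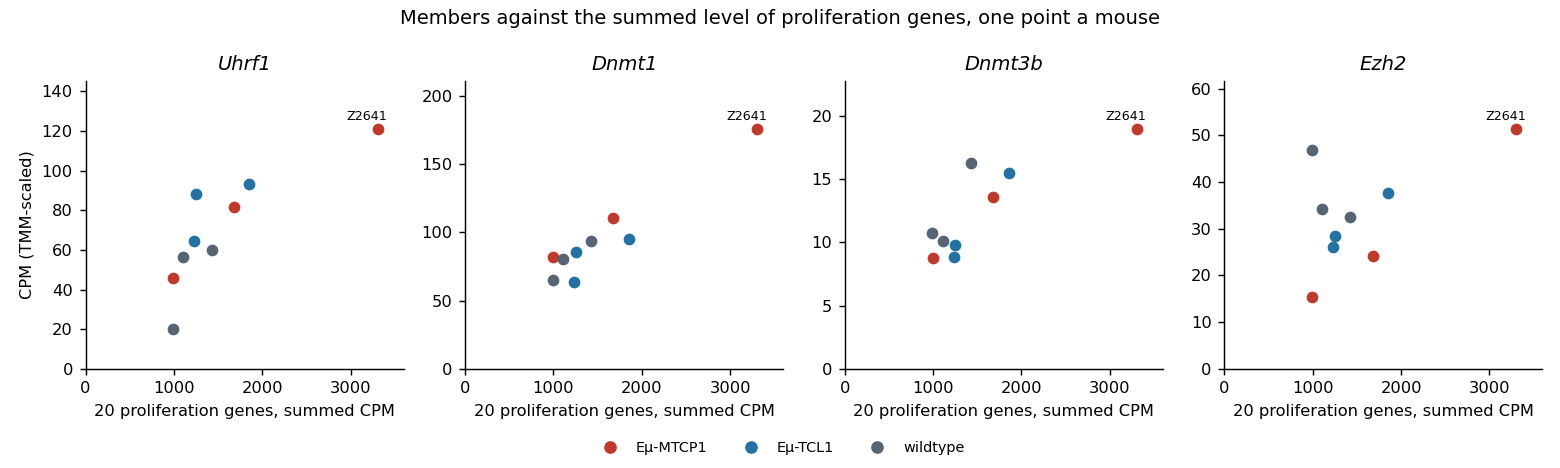
Level of 4 genes (y axis, CPM) against the summed level of 20 proliferation genes (x axis, CPM), 1 point for each of 9 mice, coloured by group. Eµ-MTCP1 mouse Z2641 lies at the far right (3304 CPM) and at the top of every panel. Ezh2 does not follow the sum in wildtype mouse Z2754, which has the second highest Ezh2 level (46.8 CPM) at the lowest sum (990 CPM).

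The deposited scales disagreed about Tet2, and the values that differed lay on a short transcript model. Tet2-205 is a coding fragment of 137 bases on chr3:133488535-133488671 (minus strand, GRCm38, GENCODE M21), in exon 3 of that transcript, and is identical to the first 137 coding bases of the full-length Tet2-201. It is shown because reads from this stretch can be assigned to either transcript:
Tet2-205: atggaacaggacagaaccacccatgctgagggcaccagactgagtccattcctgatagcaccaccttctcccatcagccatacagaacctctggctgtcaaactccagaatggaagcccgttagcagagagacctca

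Salmon gave this fragment an effective length of 5 bases, whereas Tet2-201 has 5736 coding bases without its stop codon. It was assigned 2.98, 0 and 1.95 reads in Eµ-MTCP1 mice, 0, 1.97 and 0 reads in Eµ-TCL1 mice, and 0.999, 0.934 and 0.997 reads in wildtype mice, of 263 to 546 Tet2 reads in each library. Those few reads made up 78.1% to 93.2% of the gene's TPM, the length-corrected level of each transcript, wherever they occurred. Summed Tet2 TPM was 39.5, 3.76 and 27.5 in Eµ-MTCP1 mice, 3.86, 23.7 and 2.96 in the Eµ-TCL1 group, and 13.8, 14.3 and 15.3 in wildtype mice. The authors' normalized log2 values split the mice in the same way, at 10.5, 7.86 and 10.1, then 7.82, 9.76 and 7.60, then 8.93, 8.79 and 9.20. On these scales the transgenic mice fell on either side of wildtype, whereas by CPM on the coding reference all 6 were above it. By CPM on the gene count table and the standard reference 5 were above it and Z2551 was below, at 49.8 CPM against 50.1 to 55.7 CPM and at 40.2 CPM against 40.5 to 45.2 CPM. When transcript lengths entered the fit as offsets, the log2 fold change of Tet2 was 1.005 in Eµ-MTCP1 and -0.29 in Eµ-TCL1 against wildtype (adjusted p = 0.52 and 0.87). With transcripts of effective length under 200 bases left out of the offsets, it was 0.55 and 0.58 (adjusted p = 0.12 and 0.096).

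**Figure D4:**
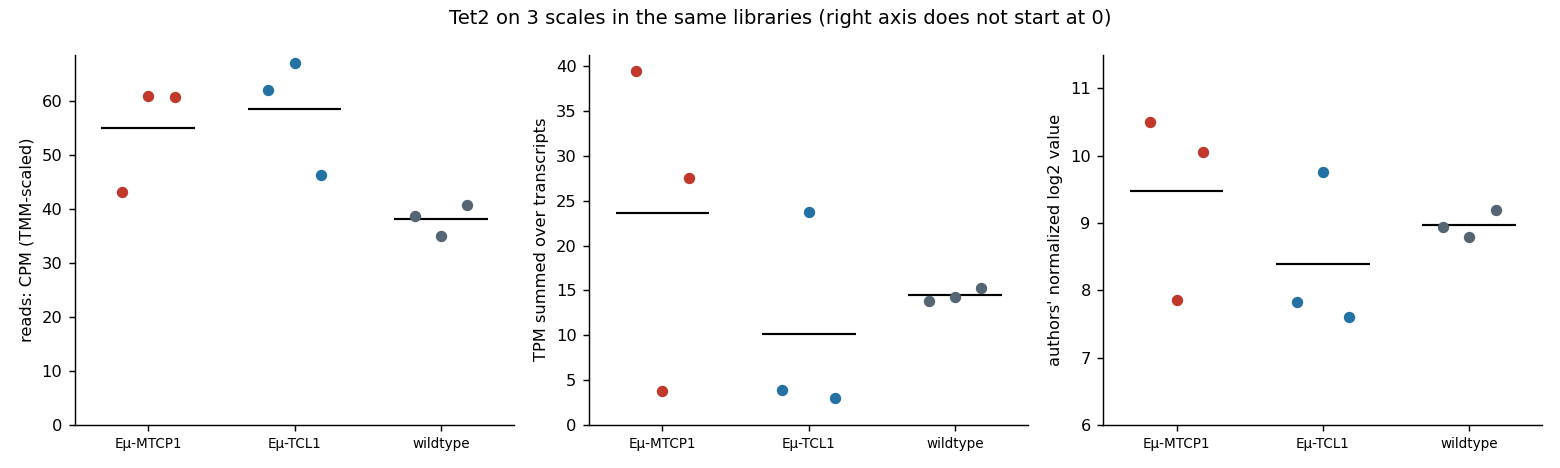
Tet2 in the same 9 libraries as CPM of reads (left), TPM summed over transcripts (middle) and the authors' normalized log2 value (right; this axis starts at 6), with group means as lines. The 3 mice without reads on the 137-base fragment (Z2606, B4376 and C1594) sit at the bottom of the middle and right panels (2.96 to 3.86 TPM) and between 46.4 and 62.1 CPM on the left.

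Effective lengths also varied for other members with short transcript models in the reference. The mean effective length assigned to Ezh2 ranged from 613 to 1630 bases between libraries, that of Dnmt3a from 789 to 1978 bases and that of Tet3 from 1683 to 4420 bases, whereas that of Dnmt1 (3873 to 4361 bases) and Uhrf1 (1849 to 2157 bases) varied little. With length offsets Ezh2 changed sign in Eµ-MTCP1 against wildtype (0.50, adjusted p = 0.57), and returned below 0 when short transcripts were left out (-0.15, adjusted p = 0.88).

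Transcript forms were described without a test, as the share of reads on transcripts with at least 1900 coding bases. Dnmt3b was read mainly as Dnmt3b-206, a form that lacks exons 22 and 23 of the full-length Dnmt3b-201, in the part that encodes the catalytic domain, together with exon 11 and part of exon 17. These exons are printed because their presence separates the forms (GRCm38, GENCODE M21, chr2, plus strand), at chr2:153670849-153670908, chr2:153683608-153683677 and chr2:153684359-153684477:
exon 11: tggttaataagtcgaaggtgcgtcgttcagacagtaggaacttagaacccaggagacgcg
exon 22: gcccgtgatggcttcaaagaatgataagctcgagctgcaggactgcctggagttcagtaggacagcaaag
exon 23: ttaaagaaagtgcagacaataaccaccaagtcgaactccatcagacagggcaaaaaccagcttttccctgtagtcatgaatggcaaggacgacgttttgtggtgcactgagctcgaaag

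The form without exons 22 and 23 took 54.6%, 77.6% and 85.3% of these reads in Eµ-MTCP1 mice, 55.2%, 87.4% and 54.2% in the Eµ-TCL1 group, and 65.7%, 86.6% and 76.9% in wildtype mice. It was the majority in 9 of 9 libraries, and the groups overlapped. On the authors' standard reference, whose transcripts include untranslated sequence, the share was 58.8% to 89.1%, so both references gave the same majority. The depth limits these shares, since a library held 62 to 150 Dnmt3b reads in all.

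Dnmt3a has a long form (Dnmt3a-201) and a short form (Dnmt3a-205) that starts from an internal promoter and lacks exons 2 to 6 and part of exon 7 of the long one. On the coding reference the short form took 30.6%, 0% and 37.8% of reads in Eµ-MTCP1 mice, 34.4%, 40.6% and 39.8% in the Eµ-TCL1 group, and 0%, 50.9% and 43.0% in wildtype mice. The values of 0 in Z2606 and Z2754 were not seen on the standard reference, where the short form took 33.7% and 31.9% there and 31.9% to 46.8% over all 9 libraries. The long form was the majority in 9 of 9 libraries on that reference. Dnmt1-203 lacks coding exons 1 to 3 of Dnmt1-201 and parts of exons 4 and 5. It took 18.5% to 41.7% of reads on the coding reference, and the groups overlapped. On the standard reference forms without the first coding exon took 24.8% to 60.5%, and were the majority in Z2641 (55.3%) and Z2785 (60.5%), so the majority form there differed between references.

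**Figure D5:**
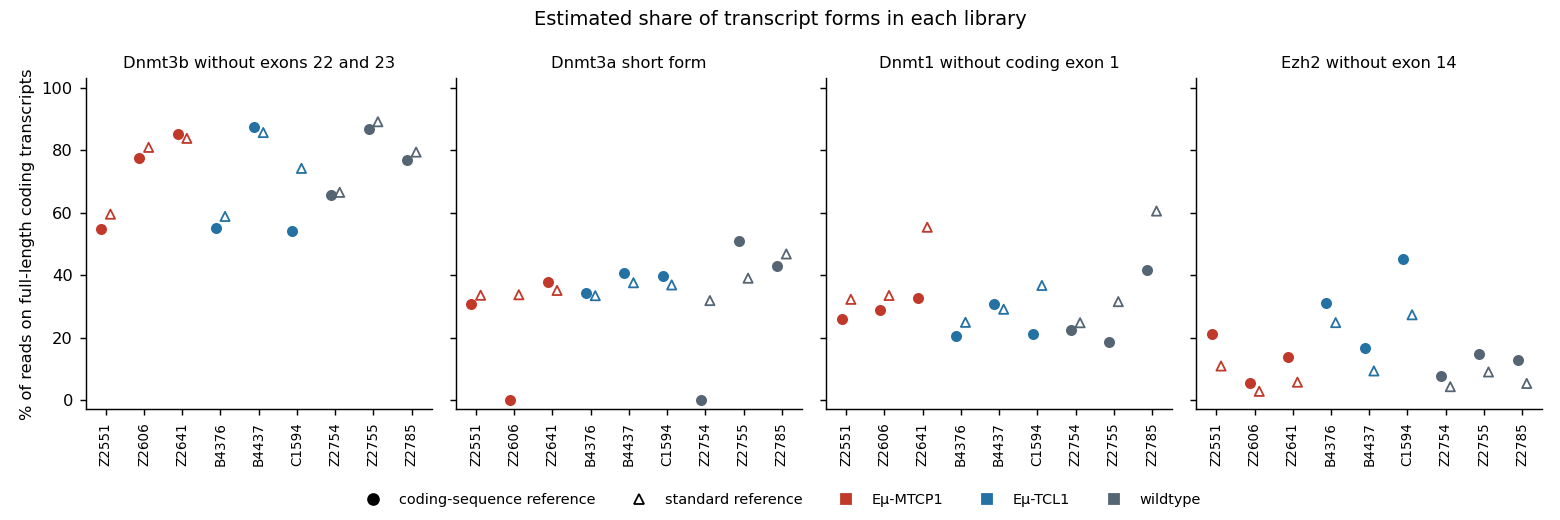
Share of reads (y axis, %) on transcript forms with at least 1900 coding bases, for each mouse (x axis), on the coding-sequence reference (filled circles) and the standard reference (open triangles). Dnmt3b without exons 22 and 23 is above 50 in every mouse, the short form of Dnmt3a is at 0 in Z2606 and Z2754 on 1 reference only, and Ezh2 without exon 14 is highest in Eµ-TCL1 mice B4376 and C1594.

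On the standard reference single transcripts of Dnmt3b and Uhrf1 were listed at 0 in every library of a group while others of the same coding length held the reads. Dnmt3b-201 and Dnmt3b-207 both have 22 coding exons and 2580 coding bases. Dnmt3b-201 was at 0% in each Eµ-MTCP1 mouse and 14.02% to 41.2% in Eµ-TCL1 mice, whereas Dnmt3b-207 was at 10.9% to 39.3% in Eµ-MTCP1 mice and 0% in each Eµ-TCL1 mouse. Counted together as forms with exons 22 and 23, they and Dnmt3b-209 took 16.2% to 40.5% of reads in Eµ-MTCP1 mice, 14.3% to 41.2% in the Eµ-TCL1 group and 10.9% to 33.5% in wildtype mice, with overlap of all groups. Dnmt3b-205 was also at 0% in each Eµ-TCL1 mouse, against 5.16% to 14.1% in the Eµ-MTCP1 group and 0% to 45.7% in wildtype mice. Uhrf1-202 and Uhrf1-203 both have 2322 coding bases. Uhrf1-202 was at 0% in each Eµ-TCL1 mouse, 0% to 9.33% in Eµ-MTCP1 mice and 5.78% to 15.8% in wildtype mice, and Uhrf1-203 at 5.38% to 19.02%, 15.9% to 35.4% and 0% to 31.3% in the same order. The 0 of a single Dnmt3b transcript was therefore no 0 of the forms with both exons. None of these shares was tested.

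Among the several forms described, the Ezh2 form without exon 14 was higher in every Eµ-TCL1 mouse than in every wildtype mouse on both references. The share of all transcript forms that do so was not computed. For gene levels, 32.6% of all genes tested did not overlap in this comparison. Ezh2-202 lacks exon 14 of Ezh2-201, at chr6:47541845-47541970 (minus strand, GRCm38, 126 bases), shown because reads across it separate the forms:
exon 14: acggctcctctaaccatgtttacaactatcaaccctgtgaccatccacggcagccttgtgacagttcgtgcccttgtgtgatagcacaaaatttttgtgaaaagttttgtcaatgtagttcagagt

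The form without exon 14 took 21.2%, 5.32% and 13.9% of reads in Eµ-MTCP1 mice, 31.0%, 16.6% and 45.0% in the Eµ-TCL1 group, and 7.63%, 14.7% and 12.9% in wildtype mice. All Eµ-TCL1 values were above all wildtype values, and Eµ-MTCP1 values overlapped both. On the standard reference the order was kept, with 24.8%, 9.31% and 27.3% in Eµ-TCL1 mice against 4.27%, 8.98% and 5.30% in wildtype mice, but the lowest Eµ-TCL1 mouse, B4437, was only slightly above the highest wildtype mouse. These shares rest on 4.88 to 75.02 estimated reads on Ezh2-202 in a library on the coding reference and 3.02 to 52.5 on the standard one, and were not tested.

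The promoters of the members were examined in the RefSeq windows of 250 bases before to 50 after each transcript start (GRCm38.p6), of which 13 belonged to the 8 genes among 32851 in all. Of the E2F-type motifs searched on both strands, TTTCCCGC was in 0 of the 13 windows (1.07% of all windows) and TTTGGCGC in 2 (0.514% of all windows). CCAAT was in 6 of 13 (37.4% of all windows) and GGGCGG in 10 of 13 (35.7% of all windows). TTTGGCGC and TTTCCCGC differ at inner bases and cannot match at the same position. Both TTTGGCGC matches lay just after the start, at base 4 of Ezh2 (chr6:47595010-47595039, minus strand) and base 34 of a Dnmt1 start (chr9:20952574-20952602, minus strand), with the motif in capitals:
Ezh2: tgggttgctgcgTTTGGCGCtcggtccggt
Dnmt1: cgcggggcagcgTTTGGCGCgggctgtgc

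The number of CG dinucleotides, the substrate of these enzymes, ranged from 2 in the Dnmt1 window at chr9:20959839-20960138 to 57 in the Tet2 window at chr3:133544341-133544640, beside a median of 7 over all windows. The 57 of Tet2 stood at percentile 99.9 of all windows, the 46 and 47 of the first Dnmt3a windows at 98.6 and 98.8, and the 17 of Tet1 at 70.3. A match is a description of these letters and no measure of binding or of methylation, neither of which was measured here.

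Partners of the enzymes, readers of methylated DNA and enzymes of the methyl donor and cofactor supply were examined as a list of 22 genes, of which 20 were tested (Dnmt3l and Zbtb33 were not, with 3 and 66 reads in all). In each model 2 rose and 1 fell against wildtype, namely Zbtb38, Ahcy and Gadd45a, beside 5.49% and 5.07% of all genes that rose and 3.99% and 4.13% that fell in Eµ-MTCP1 and Eµ-TCL1, and between the models 0 passed by edgeR (2 at an unadjusted p under 0.05). The list's median log2 fold change was -0.17 in Eµ-MTCP1 and -0.12 in Eµ-TCL1, beside -0.02 and -0.01 over all genes.

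Zbtb38, a zinc finger protein that binds methylated DNA, was 78.4, 84.4 and 112 CPM in Eµ-MTCP1 mice, 97.5, 72.6 and 93.5 CPM in Eµ-TCL1 mice, and 40.6, 23.7 and 32.03 CPM in wildtype mice. It rose by log2 fold changes of 1.52 ± 0.24 and 1.45 ± 0.24 (adjusted p = 0.0037 and 0.0046, edgeR), and passed in all 20 alternatives in both comparisons. Ahcy, which removes the S-adenosylhomocysteine left by methyl transfer, was 93.9, 83.5 and 111 CPM, then 75.9, 123 and 81.8 CPM, then 39.5, 48.6 and 58.6 CPM. It rose by 0.98 ± 0.24 and 0.94 ± 0.24 (adjusted p = 0.029 and 0.034), and 6 and 7 of 20 alternatives did not pass. Among these were leaving out Z2754 (adjusted p = 0.12 and 0.13), Z2755 (0.11 and 0.12) or Z2551 (0.075 and 0.054) in both comparisons, Z2641 in the first, and B4437 or C1594 in the second. Gadd45a, a stress protein linked to active demethylation, was 9.84, 13.5 and 13.9 CPM, then 4.56, 15.7 and 9.80 CPM, then 31.96, 31.6 and 34.3 CPM. It fell by 1.39 ± 0.38 and 1.70 ± 0.39 on the log2 scale (adjusted p = 0.047 and 0.021), and 9 and 5 of 20 alternatives did not pass. Leaving out any 1 wildtype mouse or C1594 lost the call in both comparisons, and leaving out any 1 Eµ-MTCP1 mouse lost it in the first, with adjusted p-values of up to 0.15 and 0.071. Without both libraries of highest Mpo, 1 gene of the list passed in each comparison.

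Among 12 PRC2 subunits and H3K27 demethylases, 11 were tested (Eed was not, with 74 reads in all) and 0 passed in any comparison by edgeR. At an unadjusted p under 0.05 there were 1, 1 and 0, beside 25.0%, 25.1% and 6.42% of all genes. DESeq2 called 0, 1 and 0, beside 14.8%, 15.3% and 0.657% of all genes. The median log2 fold change was -0.22 in Eµ-MTCP1 and -0.27 in Eµ-TCL1 against wildtype. Phf1, a PRC2 accessory subunit and the gene behind these counts, named after its values were seen, was 33.6, 63.8 and 52.7 CPM in Eµ-MTCP1 mice, 48.5, 44.7 and 52.5 CPM in Eµ-TCL1 mice, and 72.5, 84.6 and 84.8 CPM in wildtype mice. Every transgenic mouse was below every wildtype mouse, with adjusted p-values of 0.095 and 0.076 (edgeR). Non-overlap with wildtype held for 1 of the 11 genes in Eµ-MTCP1 and 2 in Eµ-TCL1, beside 29.9% and 32.6% of all genes tested. Of genes also named outside the rule, Ezh1, the paralog of Ezh2, was 41.9 ± 11.8, 60.8 ± 14.5 and 47.4 ± 8.93 CPM (SD, n = 3; edgeR adjusted p = 0.71 and 0.44 against wildtype), and Suz12, the core scaffold of PRC2, was 14.2 ± 6.34, 9.62 ± 2.40 and 14.6 ± 5.92 CPM (edgeR adjusted p = 0.96 and 0.41).

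The genes whose pattern over the 9 mice was most like that of a member were found by the root mean square difference of mean-centred log2 CPM, among 8964 genes of at least 5 CPM on average. For Dnmt1 they were Mcm6 (0.11), a subunit of the replicative helicase, Tnfaip8 (0.14) and Arl6ip4 (0.15), beside a spread of 0.41 for Dnmt1 itself on the same scale. For Dnmt3a they were Eif3b (0.07), Txnrd2 (0.13) and Vac14 (0.13), beside 0.27. For Dnmt3b they were Dtnbp1, Miip and Extl3 (all 0.17 to 0.18), beside 0.38. For Tet2 they were Znfx1 (0.09), Naxe (0.15) and Minos1 (0.16), beside 0.33, and for Tet3 Abtb1 (0.13), Nup133 (0.14) and Eral1 (0.14), beside 0.31. For Uhrf1 and Ezh2 the closest genes were farther away: Daglb (0.23), Cln6 (0.25) and Kif2c (0.29), beside 0.70, and Srrm1 (0.22), Rad18 (0.24) and Reps1 (0.24), beside 0.49. Tet1 was below the level at which likeness was measured.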

How the data were processed

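B cells were isolated from spleen with a negative selection kit, and 1 library per mouse was made from amplified cDNA (SMARTer v4 and Nextera XT; a TruSeq stranded kit is also named). Per the labels the authors used CASAVA 1.8.2, HISAT2 2.0.6, Subread, featureCounts, Salmon 1.0.0 and DESeq2 with build GRCm38.p4. The authors deposited Salmon estimated counts and TPM per transcript on a standard mouse reference and on one of mainly coding sequences (87.3% of lengths were multiples of 3) with human MTCP1 and TCL1 added. The authors also deposited a table of read counts per gene, the same counts after the CLEAR filter, and normalized log2 values per gene. Columns of the authors' fold changes and p-values were not used.

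Estimated counts on the coding reference were summed per gene (GENCODE M21), rounded, filtered (filterByExpr), TMM-scaled and tested with edgeR 4.0.16 in R 4.3.3, as 3 contrasts in 1 fit of all 9 libraries with no covariate. The 442 mouse transcripts without an M21 gene held at most 0.291% of reads and were left out. The adjusted p threshold was 0.05. DESeq2 1.42.0 and the other settings were alternatives. The fit was tested on simulated data. Mice were grouped by the genotype in the labels, which give no replicate numbers, and p-values measure the spread between mice. Depth was 6447542 to 8033303 reads a library, which limits the precision of genes with few reads. The genes named were all members, genes of the pathway lists with an adjusted p under 0.05 against wildtype, Mki67, Top2a and Pcna, and the 3 genes nearest in pattern to each member. Phf1, Ezh1, Suz12 and the single cell type markers were named outside this rule, after their values were seen. Members and lists were chosen with earlier results of these data known. One marker gene is not reported here.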

Additional observations from a re-analysis of the deposited data

How the results depend on the processing

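No paired analysis was possible because the labels carry no replicate numbers shared between groups. Each result was recomputed under 20 alternatives (19 for Tet1 between the models, where the fit of only the 2 groups gave no value): 9 that leave out 1 library and 11 others, of which 2 (length offsets without short transcripts, and both libraries of highest Mpo left out) were chosen after seeing the data. Counts of members passing were 0 throughout between the models. In Eµ-MTCP1 against wildtype the count was 0 to 1 with 1 library left out. In Eµ-TCL1 against wildtype it was 1, always Tet1, with library-size scaling only, the DESeq2 Wald test, no expression filter, transcript length offsets, length offsets without short transcripts or only the 2 groups compared, and 0 to 1 with 1 library left out, each of the 3 Eµ-MTCP1 libraries giving 1. Against wildtype the sign held in all 20 alternatives for Uhrf1 in both models and for Dnmt1, Tet2 and Tet3 in Eµ-MTCP1, and differed for Dnmt1 in Eµ-TCL1 in 8, Dnmt3b in Eµ-TCL1 in 5, Dnmt3a and Dnmt3b in Eµ-MTCP1 in 2 each, and Dnmt3a, Tet2, Tet3 and Ezh2 in Eµ-TCL1 and Ezh2 in Eµ-MTCP1 in 1 each. Between the models it held for Dnmt1 and Tet3 and differed for Uhrf1 and Ezh2 in 5 each, Tet2 and Dnmt3b in 3 each, and Dnmt3a and Tet1 in 1 each. Of partners and readers (3 in each comparison with wildtype) 5 passed in Eµ-TCL1 by DESeq2, 1 in each comparison without both libraries of highest Mpo, and 1 to 3 with 1 library left out. Of PRC2 genes (0), 1 passed in Eµ-MTCP1 with library-size scaling only or the gene count table, 1 in Eµ-TCL1 with library-size scaling only, DESeq2, the standard reference or only the 2 groups compared, and 0 to 1 with 1 library left out. Of proliferation genes in Eµ-MTCP1 (2), 0 passed with library-size scaling only, only the 2 groups compared or both libraries of highest Mpo left out, 5 by DESeq2, and 0 to 8 with 1 library left out. In Eµ-TCL1 (0), 1 passed by DESeq2, only the 2 groups compared or both libraries of highest Mpo left out, and 0 to 1 with 1 library left out. Over all genes DESeq2 called 1646, 1695 and 73 in Eµ-MTCP1 and Eµ-TCL1 against wildtype and between the models, where edgeR called 1059, 1027 and 5. Without a filter edgeR called 16 between the models. Without both libraries of highest Mpo it called 507 in Eµ-MTCP1 against wildtype, and with 1 library left out 525 to 1028 there and 517 to 1240 in Eµ-TCL1 against wildtype. Library-size scaling only moved the median of all genes to -0.26 in Eµ-MTCP1 and -0.15 in Eµ-TCL1 against wildtype, and on it Dnmt3a in Eµ-MTCP1 was -0.08. Apart from what the construction of each alternative shows, the cause of these changes was not tested. Few reads limited the precision of Tet1, with 0 or 1 reads in 5 of 6 transgenic libraries, and of the transcript shares.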
